A study of Homo sapiens with 12 samples.

Results

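The clustered histone genes are the genes of the linker histone H1 and of the core histones H2A, H2B, H3 and H4 that lie together in a few stretches of the genome. They were taken as every probe set whose gene symbol in the array annotation begins with H1-, H2AC, H2BC, H3C or H4C followed by a number. This gave 64 genes, each with 1 probe set, of 17709 probe sets named for a single gene: 9 of H1, 14 of H2A, 17 of H2B, 9 of H3 and 15 of H4. The symbol rule also takes in H1-8 and H1-10 on chromosome 3 and H1-7 and H4C16 on chromosome 12, away from the members on chromosomes 6 and 1. The 12 RNA samples came from MCF-10A cells, an established line of human breast epithelium that does not form tumours. The HER2-mutant line carried HER2 L755S, a change in the kinase domain of a receptor of the EGFR family, and was grown alone and measured on 4 arrays. The PIK3CA-mutant line carried PIK3CA E545K, an amino acid change in a catalytic subunit of PI3K, a lipid kinase, and was also grown alone and measured on 4 arrays. In the third group, the co-culture, both lines grew together, measured on 4 arrays, and per the labels all cultures were harvested between day 7 and day 14, when about 75% of the co-cultured cells were HER2 mutant by droplet digital PCR. EGF was kept at a physiologic level in every culture, nothing else was added, and no line without a mutation was analysed here. Each mutation was carried by 1 line as far as the labels say, so mutation and line cannot be told apart, and which day each sample was harvested is unknown here. The labels do not say whether the 4 samples of a group came from separate cultures, so p-values measure the spread between these samples, which may be technical.

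Core histones wrap DNA into nucleosomes, and H1 binds the DNA that enters and leaves them. Most clustered histone genes are transcribed during S phase, when new DNA must be packaged, and their mRNAs end in a stem-loop in place of a poly(A) tail and decay when replication stops. Some of them are also known to be made as polyadenylated transcripts in cells that have left the cycle, among them H1-2, H2AC6, H2BC4, H2BC5, H2BC11, H2BC12, H2BC18 and H2BC21. Labelling followed a whole-transcript kit, per the labels' protocols. Most copies within a core histone subfamily have nearly the same coding sequence, though the identity between members was not computed here. The signal of a probe set may therefore include transcripts of its relatives, and the source of each value below is uncertain to that extent. In whole cultures, fewer cells that make a transcript and less transcript per cell cannot be told apart.

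The start regions show what these genes share apart from their coding sequence. Of the 64 genes, 60 matched the RefSeq promoter table (GRCh38.p14), which gives 250 bases before and 50 after each gene's start. Of these, 45 lay on chromosome 6, 11 on chromosome 1, and 2 each on chromosomes 3 and 12. Shown are the 150 bases before the start of 8 genes that the results turn on, 5′ to 3′ on the gene's strand. They are H1-5, far lower in the HER2-mutant line (chr6:27867589-27867738, minus strand), and H1-2, higher in it (chr6:26056471-26056620, minus strand). For H2B they are H2BC8 (chr6:26216689-26216838, minus strand) and H2BC11 (chr6:27132796-27132945, minus strand), both lower in that line, and H2BC12 (chr6:27146859-27147008, minus strand) and H2BC21 (chr1:149886683-149886832, minus strand), both on the list of polyadenylated transcripts. For H4 they are H4C5 (chr6:26204460-26204609, plus strand) and H4C14 (chr1:149832507-149832656, plus strand), both higher in the HER2-mutant line. Capitals mark every match, on either strand, to the octamer ATTTGCAT, to TATAAA of the TATA box, to CCAAT, to AAACACA of the H1 box, to TTTGGCGC and TTTCGCGC of the E2F site, or to GGTCCG of the H4 element.
H1-5: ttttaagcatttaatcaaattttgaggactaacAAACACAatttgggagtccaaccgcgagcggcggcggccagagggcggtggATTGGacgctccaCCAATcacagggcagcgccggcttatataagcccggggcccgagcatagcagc
H1-2: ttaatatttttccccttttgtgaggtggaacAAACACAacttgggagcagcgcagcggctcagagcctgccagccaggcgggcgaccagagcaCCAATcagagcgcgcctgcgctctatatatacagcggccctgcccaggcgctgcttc
H2BC8: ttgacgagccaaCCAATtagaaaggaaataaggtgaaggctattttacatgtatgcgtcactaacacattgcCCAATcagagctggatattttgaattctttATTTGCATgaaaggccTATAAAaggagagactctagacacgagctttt
H2BC11: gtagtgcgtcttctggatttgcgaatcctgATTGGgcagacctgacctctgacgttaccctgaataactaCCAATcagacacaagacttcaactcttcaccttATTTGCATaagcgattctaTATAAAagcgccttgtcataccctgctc
H2BC12: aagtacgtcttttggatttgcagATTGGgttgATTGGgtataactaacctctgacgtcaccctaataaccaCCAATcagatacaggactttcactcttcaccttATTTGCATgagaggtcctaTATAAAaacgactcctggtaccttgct
H2BC21: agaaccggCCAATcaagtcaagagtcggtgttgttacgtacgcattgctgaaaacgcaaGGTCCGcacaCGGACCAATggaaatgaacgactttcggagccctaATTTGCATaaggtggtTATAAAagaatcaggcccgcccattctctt
H4C5: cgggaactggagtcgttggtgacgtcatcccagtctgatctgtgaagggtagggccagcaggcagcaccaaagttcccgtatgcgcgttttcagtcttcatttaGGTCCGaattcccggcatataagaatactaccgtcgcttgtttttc
H4C14: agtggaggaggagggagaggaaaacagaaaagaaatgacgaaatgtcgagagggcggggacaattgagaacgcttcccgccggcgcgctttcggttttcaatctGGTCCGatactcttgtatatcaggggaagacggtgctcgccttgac

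The motifs divided the subfamilies. ATTTGCAT, the octamer known from H2B promoters, was found within the 300-base window of 14 of 17 H2B genes and 8 of 13 H2A genes, and in 1.77% of all 35116 promoters of that length. In 8 cases an H2A and an H2B gene start 215 to 248 bases apart on opposite strands, so their windows overlap. A single site there can count for both genes, so H2A matches may be sites of the H2B partner, here and in the counts below. AAACACA, the box known from H1 promoters, was found in 7 of 9 H1 genes and 5.64% of all promoters. GGTCCG, the core of an element known from H4 promoters, was found in 12 of 13 H4 genes and 11.3% of all promoters. CCAAT was found in every matched H2A, H2B and H3 promoter, 13, 17 and 8 of them. It was also found in 8 of 9 H1 promoters, in 3 of 13 H4 promoters and in 34.6% of all. TATAAA was found in 66.7% of the members against 11.5% of all, and TTTCGCGC, a form of the E2F site, in 16.7% against 0.515%. TTTGGCGC, another form of that site, matched no member and 0.652% of all promoters. Of the 15 matched members found below to exceed both lines in the co-culture, 7 held ATTTGCAT and 5 held TTTCGCGC, against 13 and 4 of the other 35 tested ones. These matches are descriptions of letters, and H2AC12, H3C11, H4C1 and H4C3 were not among the matched genes. H1-5 and H1-2 both carry AAACACA and CCAAT, and H2BC8 and H2BC12 both carry the octamer and TATAAA. Of these, H1-5 and H1-2 went opposite ways between the lines, and H2BC8 was lower in the HER2-mutant line while H2BC12 did not pass.

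A probe set was tested where its signal passed the 30th percentile of its array, 4.29 to 4.45 on the log2 scale, on at least 4 of the 12 arrays. This held for 53 of the 64 histone genes: 6 of 9 H1, 13 of 14 H2A, 15 of 17 H2B, 7 of 9 H3 and 12 of 15 H4. Of the 53, 40 passed on every array. The 3 genes H2BC10, H2BC13 and H2BC14 had no HER2-mutant array above that level and were kept through groups where they were brighter, so they had to differ and their HER2-mutant values are limited by the background of the array. H4C6, nearest above the limit, passed on 6 arrays and read 4.52, 3.87, 4.19 and 3.76 in the HER2-mutant line, 4.45, 4.25, 4.43 and 4.22 in the PIK3CA-mutant line and 3.92, 4.51, 4.50 and 4.60 in the co-culture. The 11 genes that did not pass were H1-6, H1-7, H1-8, H2AC15, H2BC3, H2BC17, H3C1, H3C3, H4C1, H4C2 and H4C7, with group means from 3.21 to 4.52. The median of the negative control probe sets was 3.39 to 3.79. H3C1 was above the percentile on 3 arrays and stood at 4.39, 4.68, 3.83 and 4.80 on the PIK3CA-mutant arrays, against 3.10 to 3.54 in the HER2-mutant and 3.18 to 3.89 on the co-culture arrays. H1-6, H1-7 and H1-8 belong to germ cells.

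**Figure D1:**
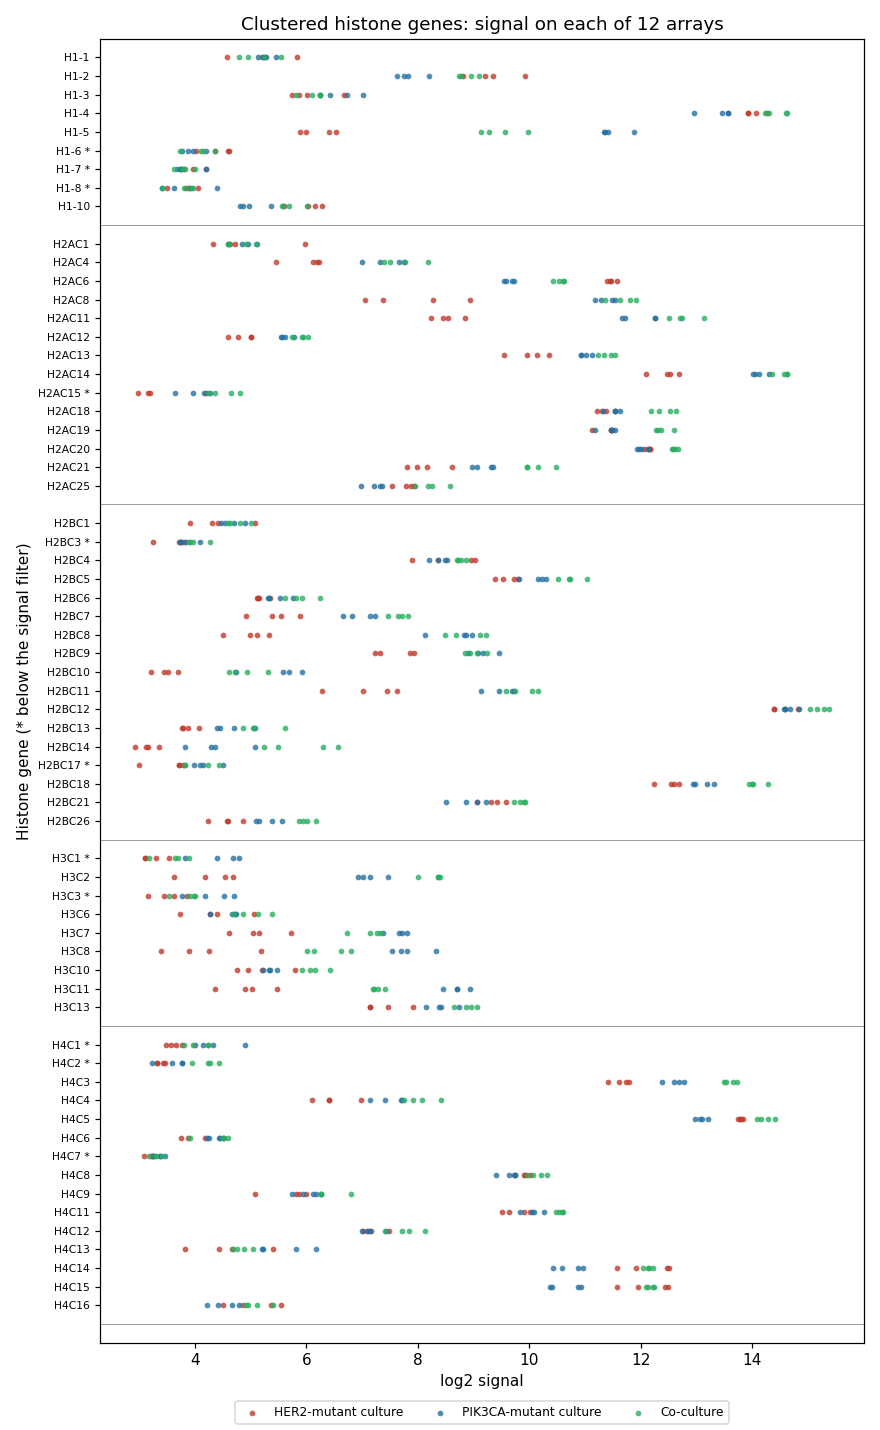
The log2 signal (horizontal axis) of each of the 64 histone genes (rows, grouped by subfamily) on 12 arrays, 1 point per array, in red for the HER2-mutant, blue for the PIK3CA-mutant and green for the co-culture; an asterisk marks the 11 genes below the signal filter. H1-5 spans from 5.89 to 11.88, and for genes such as H4C3 and H2BC18 all green points lie to the right.

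Facts of the whole data set that touch these genes were few. Array medians were 6.41 to 6.49, and 0 pairs of arrays held the same values. The basal epithelial marker KRT5 was bright in all groups, with means of 17.13 to 17.44, and EPCAM stood at 9.15 to 11.17. The summed signal of the 7 named epithelial markers was 17.66 to 17.77 on the log2 scale in the HER2-mutant, 18.06 to 18.15 in the PIK3CA-mutant and 17.68 to 17.73 in the co-culture. Of 7 named fibroblast markers 4 passed the filter, and their sum ranged from 10.95 to 11.33, 11.39 to 11.65 and 11.34 to 11.84. LUM, a defining marker, was at 2.96 to 3.20, under the median of the negative controls, while DCN (10.70 in the HER2-mutant line) and FAP (11.17 in the PIK3CA-mutant line) were bright. Of 8 blood and endothelial markers 3 passed, with sums of 7.48 to 7.82, 8.12 to 8.44 and 8.12 to 8.28, and PTPRC, LYZ and HBB did not. The part of these differences in the histone values was not tested.

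The comparison of the single cultures asked how the histone genes differed between the lines. More of them were lower than higher in the HER2-mutant line, and a minority went the other way. Linker gene H1-5 was lower by 5.29 on the log2 scale, 39.0-fold, while H1-2, H2AC6, H4C14 and H4C15 were higher by 1.40 to 1.84. In limma, 28 of the 53 tested members were lower (52.8%) against 29.4% of all 12788 probe sets tested, and 10 were higher (18.9%) against 29.9%, at a Benjamini-Hochberg adjusted p under 0.05. Both directions together made 38 (71.7%) against 59.4%. The 28 include H2BC10, H2BC13 and H2BC14, whose direction the filter fixed. The 10 include the near-identical copies H4C14 and H4C15, which may share probes. Against a margin of 0.5 (log2), 20 were lower (background 15.4%) and 6 higher (12.2%). With no filter on dim probe sets, 32 of all 64 were lower (background 21.4%) and 11 higher (22.9%). By at least 1 on the log2 scale, 19 were lower (background 12.2%) and 5 higher (9%). The median difference of the tested members was -0.51, beside 0.05 over all probe sets tested. All 4 arrays of one line lay below all 4 of the other for 25 members (background 26.6%) and above for 9 (26.3%).

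The subfamilies differed in their balance. Of 7 tested H3 genes, 5 were lower, and all 7 differences were negative, from -3.76 to -0.17 with a median of -2.50. Of 15 H2B genes 10 were lower and 1 higher (median -0.74), and of 13 H2A genes 7 were lower and 2 higher (median -0.78). The 10 lower H2B genes include H2BC10, H2BC13 and H2BC14, whose direction the filter fixed, so the H2B balance is partly set by the filter. Of 12 H4 genes 4 were lower and 4 higher (median -0.12). The 4 higher include H4C14 and H4C15, near-identical copies that may share probes and are not separate observations. Of 6 H1 genes 2 were lower and 3 higher (median 0.30). The median signal over the tested H3 genes was 4.55 to 5.15 on the HER2-mutant arrays and 7.37 to 7.80 on the PIK3CA-mutant arrays, whereas for H4 it was 8.30 to 8.70 and 8.41 to 8.72. Over all 53 tested members the array medians were 6.29, 7.01, 7.45 and 7.09 on the HER2-mutant arrays, 8.12 to 8.52 on the PIK3CA-mutant arrays and 8.57 to 8.73 on the co-culture arrays. Over all probe sets tested they were 8.19 to 8.36. Whether one subfamily differed from another was not tested, since copies share sequence.

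**Figure D2:**
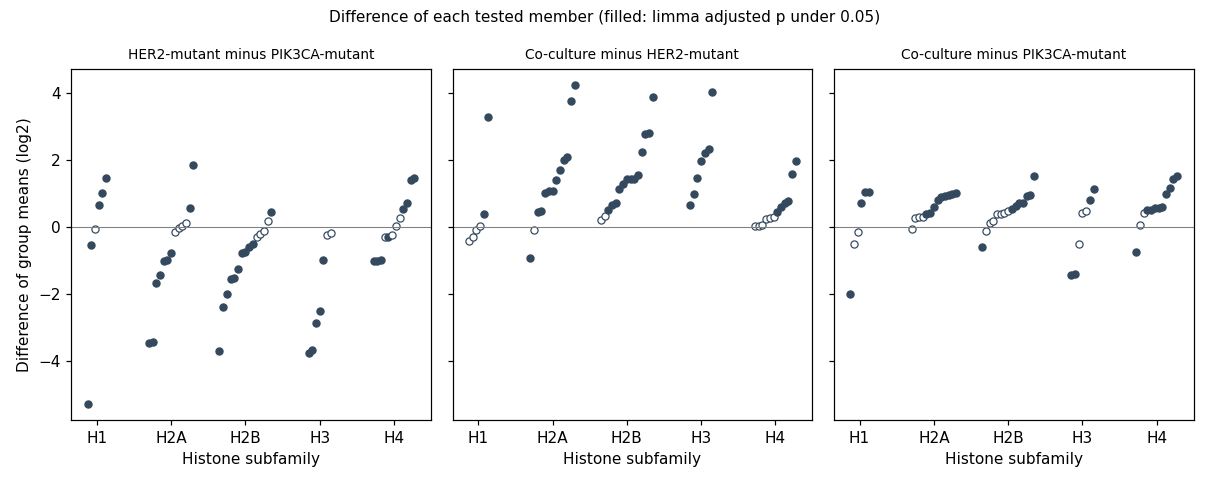
Difference of group means on the log2 scale (vertical axis) for the 53 tested members by subfamily (horizontal axis), with a panel for each pairwise comparison; filled points passed a limma adjusted p of 0.05. H1-5, at -5.29, is the lowest point of the left panel, and most points of the middle and right panels lie above 0.

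Among linker histones, H1-5, one of the H1 genes of the chromosome 6 cluster, read 5.89, 6.54, 5.99 and 6.41 on the HER2-mutant arrays, 11.35, 11.88, 11.41 and 11.33 on the PIK3CA-mutant arrays and 9.97, 9.14, 9.56 and 9.28 on the co-culture arrays. The groups did not overlap. It was lower in the HER2-mutant than in the PIK3CA-mutant line by 5.29 ± 0.18 (SE, limma adjusted p 3.2e-17), from 11.49 ± 0.26 to 6.21 ± 0.32 (SD, n = 4 each). H1-2 read 8.81, 9.20, 9.35 and 9.92 on the HER2-mutant arrays, 7.63, 8.20, 7.76 and 7.83 on the PIK3CA-mutant arrays and 8.73, 8.78, 9.10 and 8.95 on the co-culture arrays, higher in the HER2-mutant line by 1.46 ± 0.18 (SE, limma adjusted p 2.67e-07). Every HER2-mutant array was above every PIK3CA-mutant array, the reverse of H1-5. H1-4, another H1 gene of that cluster, read 14.07, 13.92, 13.92 and 14.27 on the HER2-mutant arrays, 12.95, 13.57, 13.46 and 13.57 on the PIK3CA-mutant arrays and 14.29, 14.61, 14.62 and 14.23 on the co-culture arrays. It was higher in the HER2-mutant than in the PIK3CA-mutant line by 0.66 ± 0.12 (limma adjusted p 5.48e-05), with no overlap. H1-10, a replacement linker histone made outside S phase as well, was higher by 1.02 ± 0.18 (limma adjusted p 3.11e-05), at 6.02 ± 0.30 against 5.00 ± 0.24 (SD, n = 4 each). Its arrays read 6.03, 5.60, 6.29 and 6.16 in the HER2-mutant line, 4.82, 4.86, 5.36 and 4.98 in the PIK3CA-mutant line and 5.58, 5.69, 5.57 and 6.02 in the co-culture. H1-3 was lower by 0.53 (limma adjusted p 0.028) with overlapping arrays, and H1-1 differed by -0.05 (0.849).

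Of 13 tested H2A genes 9 were called between the lines in either direction (69.2%), and of 15 H2B genes 11 (73.3%). Those 11 include H2BC10, H2BC13 and H2BC14, which the filter made differ. The share was 71.7% over all tested members and 59.4% over all probe sets. H2AC8, which encodes a core H2A, read 7.06, 7.38, 8.27 and 8.94 on the HER2-mutant arrays and 11.18, 11.53, 11.28 and 11.48 on the PIK3CA-mutant arrays. It was lower by 3.45 ± 0.25 (SE, limma adjusted p 4.47e-11), with HER2-mutant arrays spread from 7.06 to 8.94. H2AC11 read 8.46, 8.54, 8.23 and 8.85 on the HER2-mutant arrays, 11.71, 12.26, 11.66 and 12.26 on the PIK3CA-mutant arrays and 12.51, 12.74, 13.13 and 12.71 on the co-culture arrays, lower by 3.45 ± 0.15 (5.11e-15) in the HER2-mutant line. H2AC14 was lower by 1.68 ± 0.10, at 12.09, 12.46, 12.69 and 12.52 against 14.05, 14.11, 14.01 and 14.30. For each of these 3 genes every HER2-mutant array lay below every other array. H2AC6, on the list of polyadenylated transcripts, went the other way and read 11.45, 11.58, 11.40 and 11.47 on the HER2-mutant arrays, 9.55, 9.69, 9.59 and 9.73 on the PIK3CA-mutant arrays and 10.63, 10.42, 10.54 and 10.60 on the co-culture arrays. Its 3 groups were fully apart, and the HER2-mutant mean exceeded the PIK3CA-mutant mean by 1.84 ± 0.096 (SE, limma adjusted p 1.01e-13). H2AC25, which lies outside the main clusters, was higher by 0.57 ± 0.15 (0.00256), at 7.79, 7.54, 7.88 and 7.94 against 6.98, 7.36, 7.21 and 7.32.

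Among H2B genes, H2BC8 read 4.50, 5.34, 5.11 and 4.99 on the HER2-mutant arrays, 8.12, 8.87, 8.83 and 8.97 on the PIK3CA-mutant arrays and 9.22, 8.68, 9.12 and 8.48 on the co-culture arrays. It was lower in the HER2-mutant line by 3.71 ± 0.21 (SE, limma adjusted p 3.18e-13), 13.1-fold, with no overlap. H2BC11 was lower by 2.40 ± 0.21 (1.3e-09), at 6.29, 7.01, 7.45 and 7.63 against 9.13, 9.68, 9.46 and 9.73. In both, every HER2-mutant array was lowest. H2BC10 read 3.52, 3.45, 3.70 and 3.22 in the HER2-mutant line, 4.74, 5.69, 5.58 and 5.93 in the PIK3CA-mutant line and 5.31, 4.72, 4.94 and 4.62 in the co-culture, with the HER2-mutant arrays around the negative controls. The fitted difference was -2.01, with the dimmer side limited by background.

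The listed genes with known polyadenylated transcripts, 8 in all, with H1-10 beside them, went both ways. Between the single cultures, H1-2, H2AC6, H2BC21 and H1-10 were higher in the HER2-mutant line and H2BC5, H2BC11 and H2BC18 lower, while H2BC4 and H2BC12 did not pass (median of the 9 differences 0.17). Over all probe sets tested, 29.9% were higher and 29.4% lower. Against the HER2-mutant line the co-culture had 5 of the 9 higher and 1 lower (background 24.9% and 26%). Against the PIK3CA-mutant line it had 7 higher and 0 lower (11.1% and 14.6%), and all 9 differences were positive. H2BC5, an H2B gene of chromosome 6, read 9.73, 9.39, 9.53 and 9.80 in the HER2-mutant line, 9.82, 10.30, 10.15 and 10.23 in the PIK3CA-mutant line and 10.71, 10.72, 11.03 and 10.52 in the co-culture. It was lower in the HER2-mutant line (-0.51, limma adjusted p 0.00174), and the groups did not overlap. H2BC4 read 7.89, 8.95, 8.37 and 9.02 in the HER2-mutant line, 8.20, 8.52, 8.49 and 8.36 in the PIK3CA-mutant line and 8.86, 8.72, 8.70 and 8.78 in the co-culture, and none of its comparisons passed. H2BC12, at 14.39, 14.39, 14.59 and 14.82 against 14.58, 14.68, 14.57 and 14.83, differed by -0.11 (limma adjusted p 0.3), with overlapping lines. H2BC21, on chromosome 1, read 9.31, 9.07, 9.42 and 9.59 in the HER2-mutant line, 8.86, 9.23, 9.07 and 8.51 in the PIK3CA-mutant line and 9.90, 9.72, 9.83 and 9.92 in the co-culture. It differed by 0.43 between the lines (limma adjusted p 0.0134), a call that was lost without PIK3CA-mutant replicate 4 (0.0783, range over the alternatives 0.00394 to 1).

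H3 genes showed the lines far apart. H3C11 read 5.48, 4.37, 4.90 and 5.02 on the HER2-mutant arrays, 8.45, 8.94, 8.71 and 8.70 on the PIK3CA-mutant arrays and 7.29, 7.21, 7.42 and 7.19 on the co-culture arrays, lower in the HER2-mutant line by 3.76 ± 0.19 (SE, limma adjusted p 3.79e-14). H3C8 was lower by 3.66 ± 0.27 (5.9e-11), at 3.39, 3.90, 4.25 and 5.18 against 7.70, 8.32, 7.54 and 7.80. H3C2 was lower by 2.88 ± 0.20 (1.5e-11), at 4.69, 4.55, 3.62 and 4.19 against 7.01, 7.47, 6.93 and 7.15. In each of these 3 genes the HER2-mutant values reached down to near or below the filter level (3.39 for H3C8, 3.62 for H3C2 and 4.37 for H3C11). H3C8 passed that level on 9 of the 12 arrays, H3C2 on 10 and H3C11 on 11, and every array short of it was HER2-mutant. The sizes of these differences are therefore limited by background, most of all for H3C8. H3C6 (-0.23, limma adjusted p 0.38) and H3C10 (-0.17, 0.454) did not pass.

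H4 genes were split. H4C14 and H4C15, neighbours with near-identical copies, read 11.58, 11.92, 12.50 and 12.46 on the HER2-mutant arrays, 10.42, 10.88, 10.59 and 10.97 on the PIK3CA-mutant arrays and 12.04, 12.21, 12.13 and 12.15 on the co-culture arrays for H4C14, with H4C15 within 0.22 of it on every array. They were higher in the HER2-mutant line by 1.40 ± 0.16 and 1.47 ± 0.16 (SE, limma adjusted p 5.26e-08 and 3.03e-08) and are not separate observations, since the copies may share probes. H4C5 was higher by 0.70 ± 0.079 (5.53e-08), at 13.74, 13.78, 13.83 and 13.79 against 12.97, 13.09, 13.06 and 13.21. In these 3 genes the single cultures did not overlap. H4C3 was lower by 0.97 ± 0.098 (9.68e-09) and read 11.41, 11.78, 11.74 and 11.60 on the HER2-mutant arrays, 12.68, 12.60, 12.38 and 12.77 on the PIK3CA-mutant arrays and 13.72, 13.49, 13.65 and 13.53 on the co-culture arrays. H4C4 was lower by 1.01 ± 0.19 (7.25e-05), at 6.10, 6.40, 6.99 and 6.40 against 7.41, 7.71, 7.14 and 7.70. H4C11 and H4C13 were lower and H4C16 higher, each with overlapping arrays.

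Divergent neighbours could be compared directly. In 8 cases an H2A and an H2B gene started within 215 to 248 bases of each other on opposite strands, so that they share the DNA between their starts. In 2 pairs both partners were lower in the HER2-mutant line, H2AC8 with H2BC8 (-3.45 and -3.71) and H2AC11 with H2BC11 (-3.45 and -2.40). H2AC13 and H2AC14 were lower too, but their partners H2BC13 and H2BC14 had no HER2-mutant array above the filter level and had to come out lower (-0.78 and -1.25), so these pairs are no support for a shared direction. H2AC25 and H2BC26 went opposite ways (0.57 and -0.74, limma adjusted p 0.00256 and 0.000525). H2AC6 was higher (1.84) while its partner H2BC4 did not pass (0.17, 0.453), and H2AC20 did not pass (0.13, 0.167) beside a higher H2BC21 (0.43). H2AC1 and H2BC1, whose products are known from testis, did not pass (0.04 and -0.22).

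The co-culture against the HER2-mutant culture asked what set the mixture apart from the line that supplied most of its cells. Most H2A, H2B and H3 genes were higher in the co-culture, and fewer of the H4 and H1 genes. In limma, 39 of 53 tested members were higher (73.6%) against 24.9% of all probe sets, and 1, H2AC6, was lower (1.89%) against 26%, where 50.9% of all probe sets differed either way. H2BC10, H2BC13 and H2BC14 are among the 39, and the filter fixed their direction here too. With no filter, 42 of all 64 were higher (background 17.6%) and 1 lower (19.4%). By at least 1 on the log2 scale, 27 were higher (background 8.6%) and 0 lower (5.4%). The arrays did not overlap for 36 higher members (background 22.1%). The median difference was 1.00, beside -0.05 over all probe sets tested. All 7 tested H3 genes were higher, 13 of 15 H2B, 11 of 13 H2A, 6 of 12 H4 and 2 of 6 H1. H2AC11 was higher by 4.25 ± 0.15 (SE, limma adjusted p 2.08e-16), H3C2 by 4.02 ± 0.20, H2BC8 by 3.89 ± 0.21, H2AC8 by 3.76 ± 0.25 and H1-5 by 3.28 ± 0.18. The size for H3C2 is limited by background in its HER2-mutant values. H2AC6 was lower by 0.93 ± 0.096 (2.62e-08). H1-2 differed by -0.43 (limma adjusted p 0.0545) and passed as a second lower member under several alternatives (adjusted p 0.0367 with the replicate block, range over the alternatives 0.00631 to 1). H4C14 and H4C15 did not pass, at 0.02 and 0.06, and their sign turned with quantile normalization and without HER2-mutant replicate 1.

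The co-culture against the PIK3CA-mutant culture asked what set the mixture apart from its minority line, and it shares the co-culture arrays with the comparison above. Most members were higher in the mixture, while H1-5, H3C8 and H3C11, which were far lower in the HER2-mutant line, were lower. In limma, 30 of 53 were higher in the co-culture (56.6%) against 11.1% of all probe sets, and 5 were lower (9.43%) against 14.6%. With no filter the counts over all 64 were 30 and 5 (background 7.48% and 9.99%). The median difference was 0.51, beside -0.02 over all probe sets tested. Higher were 9 of 13 H2A genes, 9 of 12 H4, 7 of 15 H2B, 3 of 6 H1 and 2 of 7 H3. Among these are H2AC18 with H2AC19 and H4C14 with H4C15, copies that may share probes and so may count more than once. The lower ones were H1-5 by 2.01 ± 0.18 (SE, limma adjusted p 1.9e-08), H3C8 by 1.44 ± 0.27 (0.000345), H3C11 by 1.42 ± 0.19 (5.1e-06), H4C13 by 0.75 (0.0324) and H2BC10 by 0.59 (0.0446). The H2BC10 call was lost under several alternatives, the replicate block among them (0.0628, range over the alternatives 0.0023 to 1). When the test was set against a margin of 0.5 (log2) in place of 0, 11 members were higher (background 1.5%) and 3 lower (1.93%). By at least 1 on the log2 scale, 11 were called (background 3.43%), 8 of them higher (1.48%) and 3 lower (1.95%). H4C15 was higher by 1.52 ± 0.16 and H4C14 by 1.42 ± 0.16, H2BC14 by 1.51 ± 0.26 and H4C5 by 1.15 ± 0.079. H2BC14 is among the 30 and passed the signal filter only with its co-culture arrays counted.

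The members that left the range of both single cultures did so upward. In limma, 16 of 53 tested members exceeded both lines in the co-culture (30.2%) against 1.02% of all probe sets, with p the larger of both contrast p-values. Below both lines there were 0 members (background 0.845%), and 0 also at an unadjusted p under 0.05 (background 3.33%), where 27 were above (3.02%). Of all probe sets, 1.86% lay outside both lines on either side. With no filter, 17 of all 64 were above both (background 0.683%). The 16 were H2AC11, H2AC14, H2AC18, H2AC19, H2AC20, H2AC21, H2BC5, H2BC12, H2BC14, H2BC18, H2BC26, H3C2, H3C10, H4C3, H4C5 and H4C11. H2AC18 and H2AC19 are copies that may share probes, so they may not be separate observations. In all 16, each of the 4 co-culture arrays lay above all 8 single-culture arrays. These genes were selected for high co-culture values on the same arrays, so the separation is no further support. The share of all probe sets so separated was not computed. Of the 16, 13 passed the signal filter on every array. H2BC14 passed it on 7 arrays, enough only with the co-culture arrays counted, so its place among the 16 depends on the group where it is high. Without any 1 array the count was 12 to 17, and 11 of the 16 were called in all 12 such fits. Not called in all of them were H2AC14, H2BC5, H2BC26, H3C10 and H4C11. On chromosome 1, 6 of 11 tested members were above both, and on chromosome 6, 9 of 37 matched ones. Between the single cultures, the HER2-mutant line had 21 of those 37 lower and 4 higher on chromosome 6, and on chromosome 1, 4 of 11 were lower and 4 higher. The 37 leave out H2AC12, H3C11 and H4C3, tested members of chromosome 6 without a matched promoter. Each of them was lower in the HER2-mutant line, and H4C3 was above both in the co-culture. The 21 include H2BC10, H2BC13 and H2BC14, whose direction the filter fixed. On chromosome 1 the near-identical copies H4C14 and H4C15 both count as higher. The shares over all probe sets tested were 29.4% lower and 29.9% higher.

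H4C3, an H4 gene whose values are given above, exceeded the nearer line by 0.99 (limma adjusted p 1.61e-06). H2AC18 and H2AC19, tandem copies that may share signal, did not pass between the lines and were both higher in the co-culture. H2AC19 read 11.12, 11.47, 11.48 and 11.46 on the HER2-mutant arrays, 11.17, 11.54, 11.47 and 11.48 on the PIK3CA-mutant arrays and 12.28, 12.36, 12.59 and 12.30 on the co-culture arrays. It was above the HER2-mutant line by 1.00 ± 0.11 and above the PIK3CA-mutant line by 0.97 ± 0.11 (SE, limma adjusted p 5.87e-06 outside both). H2BC18 also had its single cultures apart from each other. It read 12.24, 12.59, 12.54 and 12.68 on the HER2-mutant arrays, 12.97, 13.31, 12.94 and 13.19 on the PIK3CA-mutant arrays and 13.99, 13.94, 14.28 and 14.01 on the co-culture arrays, 0.95 above the nearer line (5.02e-06). H3C2 read 8.36, 8.37, 8.40 and 8.01 in the co-culture, 1.14 above the nearer line (0.00164). H2BC14 exceeded the nearer line by 1.51 (0.00117), from a dim base of 3.82, 5.08, 4.36 and 4.30, and read 5.25, 5.49, 6.57 and 6.30 in the co-culture. This gene was tested only because its co-culture arrays passed the filter. H2BC12, one of the bright members, read 15.15, 15.28, 15.37 and 15.04, above the nearer line by 0.55 (0.00112).

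**Figure D3:**
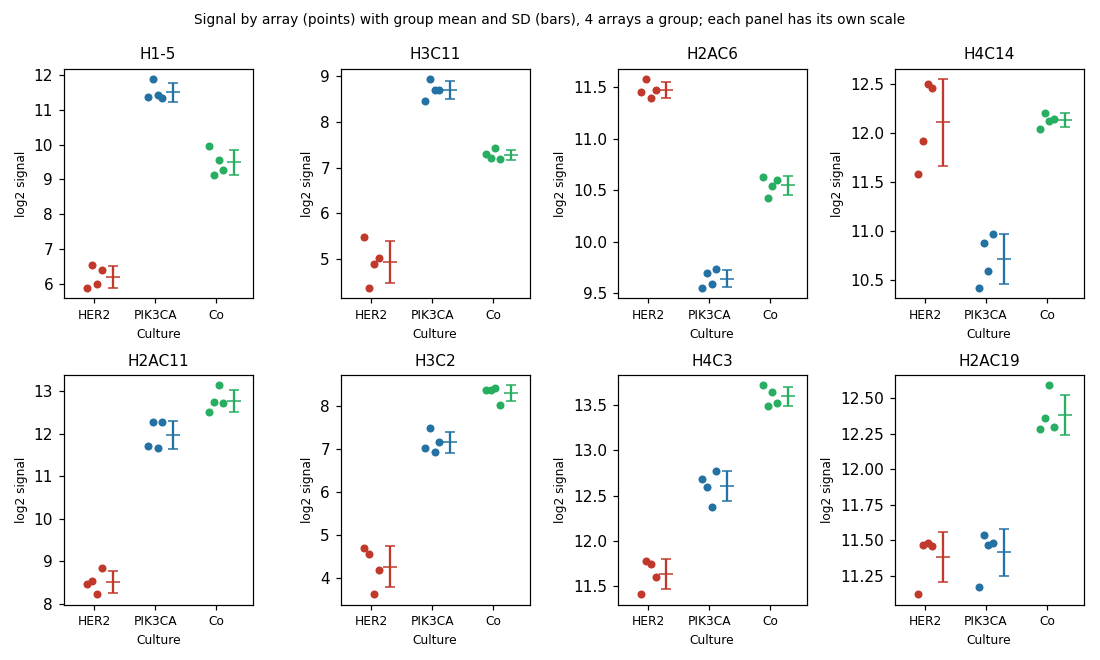
The log2 signal of 8 histone genes in the HER2-mutant (red), PIK3CA-mutant (blue) and co-culture (green), with 1 point per array and bars for the mean and SD of 4 arrays; each panel has its own vertical scale. H1-5, H3C11 and H2AC6 have the co-culture between the lines, H4C14 has it level with the HER2-mutant line, and the 4 lower panels have it above both.

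Against an expected blend of 75% HER2-mutant and 25% PIK3CA-mutant signal on the linear scale, which assumes equal RNA per cell, 37 of 53 members were higher in the co-culture (69.8%) against 18.5% of all probe sets, and 1 was lower (1.89%) against 22.3%, with 40.7% of all off the blend either way, by limma with the delta-method error. H2BC10, H2BC13 and H2BC14 are among the 37. They passed the filter only through brighter groups, and the HER2-mutant part of their blend is limited by background, so they are no support here. With no filter, 39 of all 64 were above the blend (background 12.9%) and 1 below (16%). The 1 member below among the 53 was H2AC6 (-0.64 ± 0.092, adjusted p 6.61e-06). H1-5 differed from the blend by -0.11 ± 0.17 (limma adjusted p 0.64), H3C8 by 0.25 ± 0.25 (0.463), H3C11 by 0.29 ± 0.17 (0.192) and H1-2 by -0.18 ± 0.17 (0.452). These 4 did not pass, which does not show that they equal the blend. H3C2, by contrast, lay 2.65 ± 0.18 above the blend (5.88e-11), H2AC11 by 2.45 ± 0.14 (4.49e-12) and H4C3 by 1.65 ± 0.085 (8.23e-13). The HER2-mutant part of the blend is limited by background for H3C2 and H3C8. With a blend of 50%, 37 members were above (background 8.72%) and 3 below (16.1%).

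**Figure D4:**
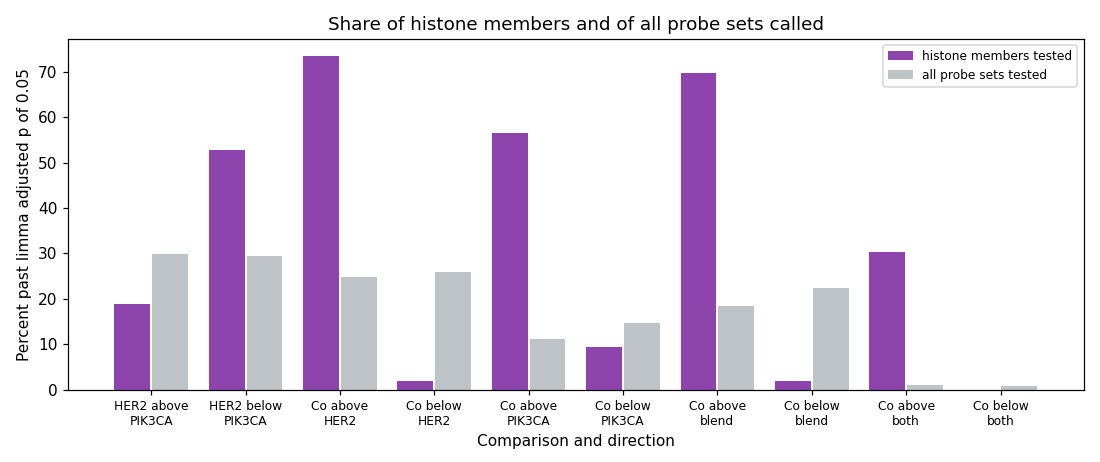
Percent of the 53 tested histone members (purple) and of all 12788 probe sets (grey) past a limma adjusted p of 0.05 (vertical axis from 0), for each comparison and direction (horizontal axis). For the co-culture above both lines the bars stand at 30.2% and 1.02%.

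Genes that act with the histones were read from 4 lists. The 20 listed S phase genes, which make and copy DNA, were all lower in the HER2-mutant line (background 29.4%, median -2.18). In the co-culture all 20 were higher than in that line (background 24.9%, median 2.10), and 19 were above the blend of 75% (18.5%). Among them RRM2, a subunit of ribonucleotide reductase, differed between the lines by -6.53, CCNA2, cyclin A2, by -5.21, and CDC6, which loads the replicative helicase, by -4.52. Against the PIK3CA-mutant line, the co-culture had 3 of the 20 higher and 6 lower (background 11.1% and 14.6%, median -0.21). In limma, 0 of the 20 were called above both lines (background 1.02%), with 3 at an unadjusted p under 0.05 (3.02%). CDT1 and CDC45 had 1 HER2-mutant array each above the filter level. The difference between these genes and the histone members was not tested.

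Of 9 replacement histones, made throughout the cycle or placed at special sites, 8 were lower and 1 higher in the HER2-mutant line (background 29.4% and 29.9%, median -1.11). H2AZ1 differed by -2.66 and H2AZ2 by -2.55. The centromeric histone gene CENPA read 3.66 to 4.03 in the HER2-mutant line, with no array above the filter level, so its fitted difference (-2.98) is limited by background and it had to come out lower. In the co-culture 8 of the 9 were higher than in the HER2-mutant line (background 24.9%), and 1 was higher and 4 lower than in the PIK3CA-mutant line (11.1% and 14.6%). Limma called 0 of them above both (background 1.02%), and 0 at an unadjusted p under 0.05 (3.02%). Factors that transcribe, process and degrade histone mRNA were mixed. In the HER2-mutant line, 4 of 18 were above and 9 below the PIK3CA-mutant level (background 29.9% and 29.4%, median -0.32). SLBP, which binds the stem-loop, differed by 0.03 (limma adjusted p 0.838), and NPAT, which activates histone transcription, was higher by 0.62 (0.00559). CDK2, a kinase that acts on NPAT, was lower by 2.14. Its cyclin gene CCNE2 read 2.73 to 4.44 in the HER2-mutant line, with 1 array above the filter level, so its fitted difference (-3.58) is limited by background. TUT7, which adds uridines to RNA ends, was higher by 2.47. In the co-culture, 2 of the 18 were higher and 3 lower than in the PIK3CA-mutant line, near the background of 11.1% and 14.6%. Of 20 histone chaperones, the HER2-mutant line had 4 higher and 10 lower (background 29.9% and 29.4%, median -0.34). The CENPA chaperone HJURP stood at -3.16, the replication chaperone CHAF1B at -2.38 and ASF1B at -1.99. Limma called 0 of the 18 factors and 0 of the 20 chaperones above both lines (background 1.02%). At an unadjusted p under 0.05 there were 0 and 1 (3.02%).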

How the data were processed

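RNA of 12 samples was hybridised to 12 single-channel arrays, 4 in each of 3 groups, after labelling of 5 µg of total RNA with a whole-transcript kit, per the labels' protocols. The authors deposited 1 table of log2 signals for 24351 probe sets, and per the submitters' processing notes these came from Transcriptome Analysis Console. The log2 scale was read from the values, and the background correction, summarisation and normalization are not given in the sources used here. Values were used as deposited. Of all probe sets, 17709 are named for 1 gene, 0 for several and 6642 for none. Those above the 30th percentile of their array on at least 4 arrays were fitted in 1 model of 3 groups with limma 3.58.1 in R 4.3.3 (eBayes with trend), and p-values were adjusted over all 12788 probe sets tested, two-sided, with a threshold of 0.05. The same script was tested on simulated data, in which 93% of 200 genes changed by 1 on the log2 scale, and 26% of 200 changed by 0.5, were recovered for the single-culture comparison over 12788 probe sets. The number of arrays limits the precision.

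Members and gene lists were chosen with earlier results of these data known. The named genes are, per subfamily, up to 3 in each direction with the largest called and non-overlapping difference between the lines, the list of polyadenylated transcripts, up to 4 outside both lines, those nearest the filter, and up to 3 per other list. Other members named were chosen after their values were seen, SLBP and NPAT likewise. Whether equal replicate numbers pair arrays was checked: the correlations of same-numbered deviations were -0.035 to 0.061, so the numbers were not used as pairs. Alternatives were the filter, quantile normalization, the variance model, a margin, the brightest probe set, the replicate block, the blend share and leaving out each array.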

Additional observations from a re-analysis of the deposited data

Results flagged for a closer look

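Each value here lay apart from the other 3 of its group by more than Dixon's critical value, as chance does in about 1 of 20 groups. This held for 5 of 87 groups examined. H1-5 read 11.88 in PIK3CA-mutant replicate 2, above 11.33 to 11.41 in the other three. H2BC8 read 8.124 in PIK3CA-mutant replicate 1, below 8.835 to 8.971. H3C2 read 8.005 in co-culture replicate 4, below 8.356 to 8.397. H2AC19 read 11.12 in HER2-mutant replicate 1, below 11.46 to 11.48. H4C6, near the signal filter, read 3.924 in co-culture replicate 1, below 4.499 to 4.601.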

How the results depend on the processing

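The counts of members called kept within 1.5 times of the reported value under most alternatives. Below the HER2-mutant line, the co-culture had 2 members in place of 1 with a filter at the 50th percentile, with quantile normalization and with the replicate block. Below the PIK3CA-mutant line it had 3 in place of 5 without the trend and with a margin of 0.5. With that margin, 6 in place of 10 were above the PIK3CA-mutant line in the HER2-mutant line, and 11 in place of 30 in the co-culture, as a stricter test must lose calls. With a blend of 50%, 3 in place of 1 were below it. Without 1 array at a time, the HER2-mutant line had 9 to 11 members higher and 26 to 29 lower than the PIK3CA-mutant line. The co-culture gave 37 to 40 and 1 to 2 against that line, 27 to 31 and 3 to 6 against the PIK3CA-mutant line, 35 to 39 and 1 against the blend, and 12 to 17 above both and 0 below both.

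Equal replicate numbers did not pair the arrays, since 0 of 12 same-numbered pairs correlated above 0.1. In 2 of these 12 pairs the same-numbered correlation was above the highest one with another number. With the replicate block, the HER2-mutant line had 10 members higher and 28 lower than the PIK3CA-mutant line. The co-culture gave 39 and 2 against it, 29 and 5 against the PIK3CA-mutant line, 37 and 1 against the blend, and 16 above both.

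The signs that turned were of differences short of the threshold. With quantile normalization, H2AC19 came to 0.057 between the lines, and H4C15 to -0.049 and H4C14 to -0.087 in the co-culture against the HER2-mutant line. Without 1 array at a time, H2AC19 ranged from -0.11 to 0.055 between the lines. Against the HER2-mutant line, H4C15 ranged from -0.12 to 0.18, H4C14 from -0.16 to 0.15 and H2BC4 from -0.014 to 0.36. Against the PIK3CA-mutant line, H2BC8 ranged from -0.017 to 0.31 and H4C6 from -0.025 to 0.20. The cause of these turns and of the changed counts was not tested. Signal near the filter limits what can be said of H2BC10, H2BC13, H2BC14 and H4C6.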
